A study of Homo sapiens with 4 samples.

Results

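The genes described here are 37 genes of the endoplasmic reticulum (ER), out of 38928 genes with at least 1 count in the series. They were listed by name as the sensors of the unfolded protein response, ER chaperones, disulfide isomerases and ER-associated degradation genes. The list has 38 names, of which VIMP is an older symbol of SELENOS. The rule that lists them uses no measured value, but the list was made with earlier results of these data known. All 37 passed the filter on low counts and were tested. They were measured by RNA sequencing in A549 cells, a line grown from a human lung adenocarcinoma, in 2 libraries of cells deprived of glutamine and 2 libraries of control cells. Deprived cells were washed with phosphate-buffered saline and kept in glutamine-free DMEM with 10% fetal bovine serum. The labels give 24 h for deprived replicate 1 and 25 h for deprived replicate 2, while the protocol gives 24 h for both. Control cells carry no treatment in the labels and are not said to have been washed. The labels do not say whether replicates were separate cultures, so the p-values measure the spread between these samples, which may be technical.

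The ER folds membrane and secreted proteins, adds disulfide bonds and N-glycans to them, and sends those that fail to fold to the proteasome. When unfolded proteins gather there, the membrane sensors IRE1 (gene ERN1), ATF6 and PERK start the unfolded protein response. IRE1 removes a short segment from XBP1 mRNA and so changes its reading frame, ATF6 is cut in the Golgi to release a transcription factor, and PERK slows translation. XBP1 and ATF6 are known to act on promoters that hold the ER stress response element (ERSE), whose letters are CCAAT, 9 bases and CCACG. A shorter form, ERSE-II, reads ATTGG, 1 base and CCACG. PERK signals through the factor ATF4, which amino acid shortage also switches on through another kinase.

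Libraries held 123414592 and 120425759 counts for deprived replicates 1 and 2 and 101496318 and 101982373 counts for control replicates 1 and 2. Of 24527 genes tested with edgeR, 49.6% were called at an adjusted p under 0.05, 25.2% higher and 24.4% lower in deprived cells. The median log2 fold change (deprived over control) of all genes was -0.06. Scaling by library size alone moved that median to -0.40, a shift of -0.34, and upper-quartile scaling moved it to -0.17, a shift of -0.11. Keratins that mark epithelium were high in every library but moved in both directions. KRT8 had 886 and 714 CPM (counts scaled by TMM to a common library total) in deprived and 5154 and 5235 CPM in control cells, while KRT7 had 2160 and 1836 CPM in deprived and 656 and 706 CPM in control cells. Of the 5 epithelial markers 4 were called lower and KRT7 higher, and together they summed to 4141 and 3534 CPM in deprived and 8090 and 8260 CPM in control libraries. The other lists summed to lower values: 31.3 and 32.6 CPM in deprived against 44.8 and 43.3 CPM in control libraries for 7 alveolar type II genes, and 4.38 and 4.53 CPM against 13.1 and 13.7 CPM for 7 fibroblast genes. The defining alveolar type II marker SFTPC stood under 0.2 CPM in every library. Most of the alveolar type II sum was ABCA3, at 27.7 and 28.6 CPM in deprived and 41.2 and 41.3 CPM in control libraries. LAMP3 of that list was called higher, at 2.59 and 3.03 CPM in deprived and 0.420 and 0.0817 CPM in control libraries. Endothelial markers summed to under 1 CPM in every library. The 7 blood markers summed to 1.77 and 1.51 CPM in deprived libraries, against 33.6 and 14.3 CPM in control libraries. CD14 of that list had 0.498 and 0.525 CPM in deprived libraries, against 13.2 and 12.4 CPM in control libraries. PTPRC and CD68 were not called. Control replicate 1 stood apart in hemoglobin, with 11.6 CPM of HBB, while control replicate 2 had 0.227 CPM and the deprived libraries 0.134 and 0.111 CPM. The part of these markers in the results was not tested, and results without control replicate 1 are given where they differ. In bulk RNA, fewer cells with a transcript and less of it per cell cannot be told apart.

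The stretch of XBP1 mRNA that IRE1 removes is shown because the response runs through it. The capitals mark the 26 bases at chr22:28796127-28796152 (GRCh38, minus strand) that are present in the annotated transcript XBP1-201 and absent from the annotated spliced transcript XBP1-202.
XBP1-201: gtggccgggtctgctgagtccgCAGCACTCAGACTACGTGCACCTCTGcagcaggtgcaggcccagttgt
XBP1-202: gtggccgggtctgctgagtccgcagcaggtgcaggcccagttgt
The bases at the ends of the segment repeat, so the 2 transcripts alone allow 7 placements. The one shown has both cuts in the letters CNGCNGN, the known IRE1 cleavage motif.

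ERSE letters stood in the promoters of 9 of the 34 members found in the RefSeq promoter table (GRCh38.p14, 250 bases before to 50 after each start), against 0.0916% of the 27305 genes of that table (0.0769% of its 35116 promoters, since some genes have several). ERSE-II letters stood in 3 members, against 0.0696% of genes (0.0541% of promoters). Both strands were searched, for exact letters only. PDIA3, DERL1 and DERL3 are named only. The elements are printed in groups by the call of their gene. Their fixed letters are alike because the search required them. Capitals mark the fixed letters, with 6 bases on either side. These 4 belong to the members that rose and hold an element.
SERP1, chr3:150546704-150546734, plus strand: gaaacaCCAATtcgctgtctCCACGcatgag
HSPA5, chr9:125241385-125241415, minus strand: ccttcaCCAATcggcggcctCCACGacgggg
XBP1, chr22:28800597-28800627, minus strand: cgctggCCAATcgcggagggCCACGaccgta
HERPUD1, chr16:56932019-56932041, plus strand: acgccgATTGGgCCACGttggga
Elements of the 3 members that were not called, with a pair in HSP90B1 and a pair in HYOU1, read as follows.
CANX, chr5:179698772-179698802, plus strand: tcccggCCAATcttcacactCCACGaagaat
HSP90B1, chr12:103930210-103930240, plus strand: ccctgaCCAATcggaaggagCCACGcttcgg
HSP90B1, chr12:103930315-103930345, minus strand: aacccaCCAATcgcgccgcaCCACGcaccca
HYOU1, chr11:119057268-119057290, plus strand: gtactcATTGGaCCACGtcccag
HYOU1, chr11:119057374-119057396, plus strand: cctgggATTGGaCCACGtcacgg
Those of the 5 members that fell read as follows.
PDIA6, chr2:10812847-10812877, minus strand: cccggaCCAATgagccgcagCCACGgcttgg
CALR, chr19:12938378-12938408, minus strand: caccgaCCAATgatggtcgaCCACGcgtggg
ERO1B, chr1:236282177-236282207, plus strand: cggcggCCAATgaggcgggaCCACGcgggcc
SDF2L1, chr22:21642108-21642130, minus strand: gttttgATTGGtCCACGcttccg
CRELD2, chr22:49918548-49918578, minus strand: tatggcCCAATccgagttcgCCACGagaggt

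Across all 37 members, 15 were higher in deprived cells, 13 were lower and 9 were not called. The share called was 75.7%, against 49.6% of all genes tested (25.2% higher and 24.4% lower). Among the 17755 genes with at least 50 counts in 2 libraries the share was 66.0%, and 15 of 36 members were then higher and 14 lower. The members' median log2 fold change was -0.01, near that of all genes, with values from -2.28 for PDIA5 to 2.75 for ERN1. The sensors ERN1 and ATF6 and their factor XBP1 were all 3 higher, 8 of 11 disulfide genes and 4 of 8 chaperone genes were lower (1 was higher in each of these roles), and 7 of 11 degradation genes and 3 of 4 translocon genes were higher. The median log2 fold changes of these roles were 1.45 for the sensors and XBP1, -0.63 for chaperones, -0.42 for disulfide formation, 0.52 for degradation and 0.49 for the translocon. All 5 medians kept their sign under each scaling tried, at 1.117, -0.97, -0.76, 0.19 and 0.16 in the same order with library size alone. Under that scaling 9 members were called higher and 16 lower, with 4 degradation genes higher and 2 lower and 1 of the 4 translocon genes higher. Deprived and control libraries did not overlap for 31 of the 37 members, against 76.5% of all genes tested, so the count is near the background.

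**Figure D1:**
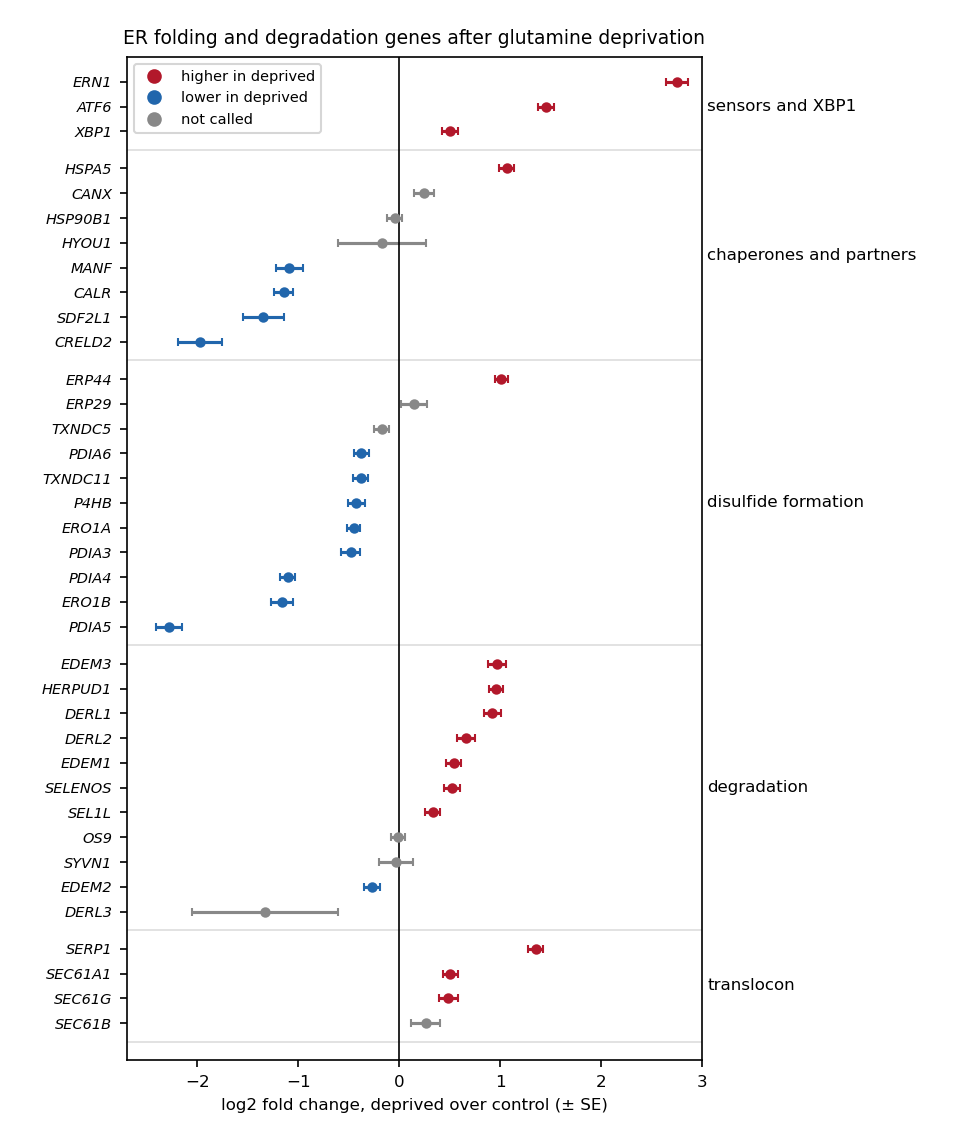
Log2 fold change of each of the 37 genes (x axis, deprived over control) with its SE, grouped by role from top to bottom. Red points were called higher, blue points lower and grey points were not called. The sensors, degradation and translocon genes lie mostly right of 0, and the chaperone and disulfide genes mostly left of it.

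ERN1 encodes IRE1, the kinase and nuclease that cuts XBP1 mRNA (chr17:64039142-64130819, minus strand). It had 103 and 124 CPM in deprived replicates 1 and 2, against 16.8 and 16.9 CPM in control replicates 1 and 2. Both deprived libraries lay far above both control libraries, a 6.73-fold difference in TMM-scaled counts, which are not divided by transcript length (log2 fold change 2.75 ± 0.11 (SE), edgeR adjusted p = 2.01e-05). This was the largest increase of the 37 members. The long transcript ERN1-201 held 95.3% and 95.5% of ERN1 counts in deprived cells and 76.3% and 70.4% in control cells. Its counts were 10231 and 12862 in deprived libraries, against 1461 and 1315 in control libraries (log2 fold change 3.11 ± 0.17, edgeR adjusted p = 0.039). The short coding transcript ERN1-208 had 467 and 543 counts in deprived libraries, against 440 and 504 in control libraries (log2 fold change 0.15 ± 0.29, edgeR adjusted p = 0.803). The increase of the gene was thus carried in counts by ERN1-201.

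ATF6, the sensor that becomes a transcription factor (chr1:161766294-161964070, plus strand), had 189 and 172 CPM in deprived replicates 1 and 2, against 64.4 and 67.04 CPM in control replicates 1 and 2 (log2 fold change 1.45 ± 0.08 (SE), edgeR adjusted p = 4.42e-05). That is a 2.74-fold difference, and 1 transcript, ATF6-201, held over 99% of the counts in every library. XBP1, the transcription factor downstream of IRE1 (chr22:28794555-28800597, minus strand), had 77.8 and 84.1 CPM in deprived replicates 1 and 2, against 54.9 and 59.6 CPM in control replicates 1 and 2. The groups did not overlap, but the difference was smaller (log2 fold change 0.50 ± 0.08 (SE), edgeR adjusted p = 0.00303), and with library size alone it was 0.17 and not called (edgeR adjusted p = 0.167).

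XBP1 transcripts were split by the 26-base segment. Those with the flanks joined, XBP1-202 and XBP1-207, held 15.3% and 24.9% of XBP1 counts in deprived replicates 1 and 2, against 8.58% and 17.6% in control replicates 1 and 2. Deprived replicate 1 lay below control replicate 2, so the groups overlapped and no difference in the spliced share was detectable with these libraries. In counts, the joined form had 1246 and 2271 in deprived libraries and 538 and 1153 in control libraries. Most of it was XBP1-207, with 1030 and 1943 counts in deprived and 363 and 764 in control libraries (log2 fold change 1.43 ± 0.57, edgeR adjusted p = 0.234). XBP1-202 had 216 and 328 counts in deprived and 175 and 389 in control libraries (log2 fold change -0.02 ± 0.57, edgeR adjusted p = 0.991). Transcripts with the segment held 84.6% and 75.0% of counts in deprived cells and 91.2% and 82.3% in control cells. They include the retained-intron transcript XBP1-206, which held 8.96% and 14.1% in deprived and 31.4% and 28.1% in control libraries (log2 fold change -0.87 ± 0.35, edgeR adjusted p = 0.231). These are estimated counts of transcripts that differ by few bases, and the split depends on how the deposited values divided reads among them.

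**Figure D2:**
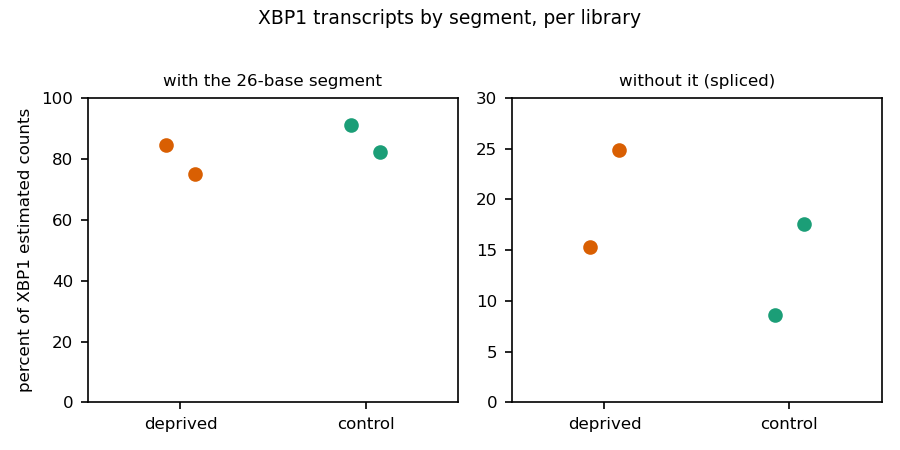
Percent of XBP1 estimated counts (y axis) in transcripts with the 26-base segment (left panel) and without it (right panel, other scale), 1 point per library, deprived left of control. The values without the segment are 15.3% and 24.9% in deprived and 8.58% and 17.6% in control libraries, which overlap.

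Among the chaperones and their partners, HSPA5 (BiP), the main Hsp70 of the ER, was higher and 4 others were lower. HSPA5 (chr9:125234853-125241330, minus strand) had 439 and 436 CPM in deprived replicates 1 and 2, against 202 and 216 CPM in control replicates 1 and 2, 2.09-fold higher (log2 fold change 1.07 ± 0.08 (SE), edgeR adjusted p = 0.000109). Replicates lay close together, and a single annotated transcript held all HSPA5 counts. CALR, the lectin chaperone and calcium store calreticulin (chr19:12938578-12944489, plus strand), had 267 and 231 CPM in deprived replicates 1 and 2, against 542 and 560.3 CPM in control replicates 1 and 2. It was 2.21-fold lower in deprived cells (log2 fold change -1.15 ± 0.10 (SE), edgeR adjusted p = 0.000203). CALR-201 held over 97% of its counts in every library, and was the only member transcript called lower.

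HSPA5 and CALR moved in opposite directions under each scaling (0.73 and -1.48 with library size alone). Each holds 1 exact match to the ERSE letters. Copies with a mismatch were not searched, so the number of such copies in these promoters was not compared. The promoters of HSPA5 and CALR are printed with the exact match in capitals. In CALR it lies on the opposite strand, so the printed strand shows its reverse complement.
HSPA5, chr9:125241294-125241593, minus strand: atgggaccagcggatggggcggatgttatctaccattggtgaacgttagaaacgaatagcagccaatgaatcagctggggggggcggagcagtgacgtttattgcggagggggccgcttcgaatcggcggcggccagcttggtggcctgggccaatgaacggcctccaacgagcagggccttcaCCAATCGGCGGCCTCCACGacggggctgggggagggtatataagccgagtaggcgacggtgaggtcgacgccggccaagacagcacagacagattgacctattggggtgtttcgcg
CALR, chr19:12938359-12938658, plus strand: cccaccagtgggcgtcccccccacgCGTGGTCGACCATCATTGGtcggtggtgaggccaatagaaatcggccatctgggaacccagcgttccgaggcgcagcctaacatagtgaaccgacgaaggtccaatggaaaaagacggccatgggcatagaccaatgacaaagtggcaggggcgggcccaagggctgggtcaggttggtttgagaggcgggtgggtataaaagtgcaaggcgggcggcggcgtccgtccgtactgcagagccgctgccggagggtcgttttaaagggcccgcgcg
The element starts 66 bases before the listed start in HSPA5 and 225 bases before it in CALR.

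The 3 other chaperone genes that fell had low levels. CRELD2, an ER protein with EGF-like domains, had 2.08 and 1.52 CPM in deprived replicates 1 and 2, against 6.63 and 7.49 CPM in control replicates 1 and 2 (log2 fold change -1.97 ± 0.22 (SE), edgeR adjusted p = 0.000652). SDF2L1, a partner of BiP and its J-domain proteins, had 2.11 and 1.73 CPM in deprived cells and 4.61 and 5.16 CPM in control cells (log2 fold change -1.35 ± 0.20 (SE), edgeR adjusted p = 0.0024). MANF, a secreted factor that binds BiP, had 7.99 and 7.57 CPM in deprived cells and 15.04 and 18.04 CPM in control cells (log2 fold change -1.09 ± 0.13 (SE), edgeR adjusted p = 0.00101). In all 3 both deprived libraries lay below both control libraries, with 3.92-fold, 2.55-fold and 2.13-fold lower levels in deprived cells in the order named. CRELD2 counts were spread over transcripts that differed between libraries: CRELD2-201 held 46.5% and 0% of them in deprived and 47.0% and 73.2% in control libraries.

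CANX, the membrane lectin calnexin, had 1324 and 1230.2 CPM in deprived replicates 1 and 2, against 1021 and 1128 CPM in control replicates 1 and 2, and the groups did not overlap although the difference was not called (log2 fold change 0.25 ± 0.10 (SE), edgeR adjusted p = 0.0818). DESeq2 and limma-voom did call it, at adjusted p = 0.00981 and 0.0311, and library size alone gave -0.09. HSP90B1 (GRP94), the Hsp90 of the ER, had 228 and 219.5 CPM in deprived cells and 224 and 238 CPM in control cells (log2 fold change -0.05 ± 0.07 (SE), edgeR adjusted p = 0.64). With library size alone HSP90B1 was called lower. HYOU1, the exchange factor that reloads BiP with ATP, had 21.5 and 24.9 CPM in deprived replicates 1 and 2, against 38.6 and 13.6 CPM in control replicates 1 and 2. Its control libraries lay on either side of both deprived libraries, so no direction can be given (log2 fold change -0.17 ± 0.44 (SE), edgeR adjusted p = 0.779). Without control replicate 1, the library with the hemoglobin counts, HYOU1 was called higher (0.76, edgeR adjusted p = 0.00881), and without control replicate 2 it was called lower (-0.75, edgeR adjusted p = 0.00598).

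Of the 11 disulfide genes, 8 were lower, 1 was higher and 2 were not called. Protein disulfide isomerases form and reshuffle disulfide bonds, and the ERO1 oxidases recharge them. The largest decrease of the 37 members was that of PDIA5 (chr3:123067062-123225227, plus strand), an isomerase of the family. It had 3.17 and 2.97 CPM in deprived replicates 1 and 2, against 14.7 and 15.1 CPM in control replicates 1 and 2, 4.86-fold lower in deprived cells (log2 fold change -2.28 ± 0.13 (SE), edgeR adjusted p = 5.3e-05). ERO1B (chr1:236215555-236281985, minus strand), the ERO1 oxidase known from secretory tissue such as pancreas, had 7.49 and 7.86 CPM in deprived replicates 1 and 2, against 17.2 and 17.1 CPM in control replicates 1 and 2 (log2 fold change -1.16 ± 0.11 (SE), edgeR adjusted p = 0.00032). PDIA4 (ERp72; chr7:149003062-149028641, minus strand) had 37.04 and 39.3 CPM in deprived replicates 1 and 2, against 80.9 and 83.5 CPM in control replicates 1 and 2 (log2 fold change -1.11 ± 0.07 (SE), edgeR adjusted p = 7.78e-05). In these 3 genes each group's libraries lay within a narrow band and the bands stood far apart.

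Smaller decreases were found in 5 further genes. PDIA3 (ERp57), which works with calnexin and calreticulin on glycoproteins, had 82.9 and 74.3 CPM in deprived cells and 104 and 116 CPM in control cells (log2 fold change -0.48 ± 0.09 (SE), edgeR adjusted p = 0.00642). ERO1A, the widely expressed ERO1 oxidase, had 83.4 and 86.9 CPM in deprived cells and 118 and 115 CPM in control cells (log2 fold change -0.45 ± 0.07 (SE), edgeR adjusted p = 0.00227). P4HB, which is the founding isomerase PDI and also a subunit of collagen prolyl 4-hydroxylase, had 471 and 435 CPM in deprived cells and 605 and 612 CPM in control cells (log2 fold change -0.42 ± 0.08 (SE), edgeR adjusted p = 0.0063). With protein-coding transcripts only, the P4HB difference was -0.54 and not called (edgeR adjusted p = 0.107). TXNDC11, a membrane protein with thioredoxin domains, had 29.8 and 29.8 CPM in deprived cells and 39.7 and 38.02 CPM in control cells (log2 fold change -0.38 ± 0.07 (SE), edgeR adjusted p = 0.00567). PDIA6 (P5), an isomerase that binds BiP, had 182 and 184 CPM in deprived cells and 229.9 and 245 CPM in control cells (log2 fold change -0.37 ± 0.07 (SE), edgeR adjusted p = 0.00638). For each of the 5, both deprived libraries lay below both controls. The processed pseudogene PDIA3P1, which could take PDIA3 reads, had 2.14 and 1.62 CPM in deprived cells and 3.19 and 3.33 CPM in control cells.

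ERP44, which holds ERO1 oxidases and other clients back in the early secretory pathway, was the one disulfide gene called higher (chr9:99979179-100099040, minus strand). It had 61.2 and 61.3 CPM in deprived replicates 1 and 2, against 30.3 and 30.4 CPM in control replicates 1 and 2, 2.02-fold higher (log2 fold change 1.01 ± 0.07 (SE), edgeR adjusted p = 8.59e-05), and its replicates were nearly equal in both groups. Its clients ERO1A and ERO1B were both lower. TXNDC5 (ERp46) had 254 and 247 CPM in deprived cells and 294 and 272 CPM in control cells, apart but not called (log2 fold change -0.17 ± 0.08 (SE), edgeR adjusted p = 0.105). It was called lower with library size alone (-0.51), upper-quartile factors (-0.28), genes of at least 50 counts in 2 libraries (-0.22) and protein-coding transcripts only (-0.23), at edgeR adjusted p from 0.0028 to 0.0432. TXNDC5 shares 2658 of its 4387 exon bases with the read-through gene BLOC1S5-TXNDC5, so its counts are uncertain. ERP29, a chaperone of the PDI family without a redox-active site, had 79.1 and 61.8 CPM in deprived cells and 60.5 and 66.95 CPM in control cells, and its groups overlapped (log2 fold change 0.14 ± 0.13 (SE), edgeR adjusted p = 0.397).

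ER-associated degradation pulls failed proteins back to the cytosol for the proteasome, and 7 of its 11 listed genes were higher. HERPUD1, a membrane scaffold of the degradation complex (chr16:56932048-56944863, plus strand), had 115 and 111 CPM in deprived replicates 1 and 2, against 56.9 and 59.3 CPM in control replicates 1 and 2 (log2 fold change 0.96 ± 0.07 (SE), edgeR adjusted p = 0.000115). EDEM3, a mannosidase that trims glycans of misfolded proteins (chr1:184690231-184754913, minus strand), had 71.5 and 83.01 CPM in deprived replicates 1 and 2, against 39.7 and 39.3 CPM in control replicates 1 and 2 (log2 fold change 0.97 ± 0.09 (SE), edgeR adjusted p = 0.000324). DERL1, a derlin of the retrotranslocation machinery, had 188 and 178 CPM in deprived replicates 1 and 2, against 91.6 and 101 CPM in control replicates 1 and 2 (log2 fold change 0.92 ± 0.08 (SE), edgeR adjusted p = 0.000249). Each of the 3 had nearly 2 times the control level in deprived cells, with folds of 1.94, 1.96 and 1.90 in the order named.

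DERL2, another derlin, had 131 and 121 CPM in deprived cells and 74.4 and 84.5 CPM in control cells (log2 fold change 0.66 ± 0.09 (SE), edgeR adjusted p = 0.00145). EDEM1, the first described of the EDEM proteins, had 180.2 and 189 CPM in deprived cells and 132 and 123 CPM in control cells (log2 fold change 0.54 ± 0.07 (SE), edgeR adjusted p = 0.00161). SELENOS (VIMP), a selenoprotein that brings the ATPase VCP to the membrane, had 36.3 and 36.9 CPM in deprived cells and 24.5 and 26.5 CPM in control cells (log2 fold change 0.52 ± 0.08 (SE), edgeR adjusted p = 0.00231). SEL1L, the adaptor of the SYVN1 ligase, had 238 and 249 CPM in deprived cells and 190.3 and 197 CPM in control cells (log2 fold change 0.33 ± 0.07 (SE), edgeR adjusted p = 0.00997). All 4 had both deprived libraries above both controls. With library size alone, EDEM1 and SELENOS were no longer called (0.20 and 0.19, edgeR adjusted p = 0.113 and 0.105) and SEL1L was at -0.00443. SEL1L also lost its call without control replicate 1 (0.30, edgeR adjusted p = 0.0719).

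EDEM2 was the only degradation gene called lower, with 61.6 and 55.96 CPM in deprived cells and 69.98 and 71.8 CPM in control cells (log2 fold change -0.27 ± 0.08 (SE), edgeR adjusted p = 0.0289), whereas EDEM1 and EDEM3 were higher (EDEM1 not called with library size alone). The EDEM2 call did not hold with RLE factors (edgeR adjusted p = 0.055), without a filter (0.0683), or with control replicate 1, control replicate 2 or deprived replicate 2 left out in turn (0.0739 to 0.121). The ubiquitin ligase SYVN1 (HRD1) had 12.8 and 16.2 CPM in deprived cells and 16.4 and 13.3 CPM in control cells (log2 fold change -0.03 ± 0.17 (SE), edgeR adjusted p = 0.89). The lectin OS9 had 95.2 and 90.4 CPM in deprived cells and 96.3 and 90.8 CPM in control cells (log2 fold change -0.01 ± 0.07 (SE), edgeR adjusted p = 0.906). In SYVN1 and OS9 the groups overlapped, and with library size alone OS9 was called lower. DERL3, the derlin of secretory tissue, was barely detected, with 6 and 7 counts in deprived and 23 and 12 counts in control libraries (edgeR adjusted p = 0.18). DERL3 shares 2923 of its 3796 exon bases with SMARCB1 on the opposite strand, and the labels do not say whether counting used the strand. In all, 19 members share exon bases with a gene on the opposite strand, outside DERL3 at most 25.2% (PDIA6), so their counts carry that uncertainty. On the same strand, PDIA5 shares 490 of its 4030 exon bases with SEC22A, and SYVN1 shares 398 of its 5496 with FAU. Counting by strand would not separate these.

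The translocon passes new proteins into the ER. SERP1 (RAMP4), a small membrane protein bound to the Sec61 channel (chr3:150541994-150603228, minus strand), had 314 and 308 CPM in deprived replicates 1 and 2, against 118 and 126 CPM in control replicates 1 and 2, 2.55-fold higher (log2 fold change 1.35 ± 0.07 (SE), edgeR adjusted p = 4.51e-05). SEC61A1, the channel itself, had 456 and 436 CPM in deprived cells and 319 and 309 CPM in control cells (log2 fold change 0.50 ± 0.07 (SE), edgeR adjusted p = 0.00212). SEC61G, its gamma subunit, had 36.3 and 31.98 CPM in deprived cells and 23.4 and 25.4 CPM in control cells (log2 fold change 0.48 ± 0.09 (SE), edgeR adjusted p = 0.00705). For these 3 both deprived libraries lay above both controls. SEC61B, the beta subunit, had 61.02 and 47.98 CPM in deprived cells and 41.1 and 49.7 CPM in control cells, so its groups overlapped (log2 fold change 0.26 ± 0.14 (SE), edgeR adjusted p = 0.181). With library size alone SERP1 was still called, while SEC61A1 and SEC61G were at 0.17 and 0.15 and not called (edgeR adjusted p = 0.12 and 0.174).

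**Figure D3:**
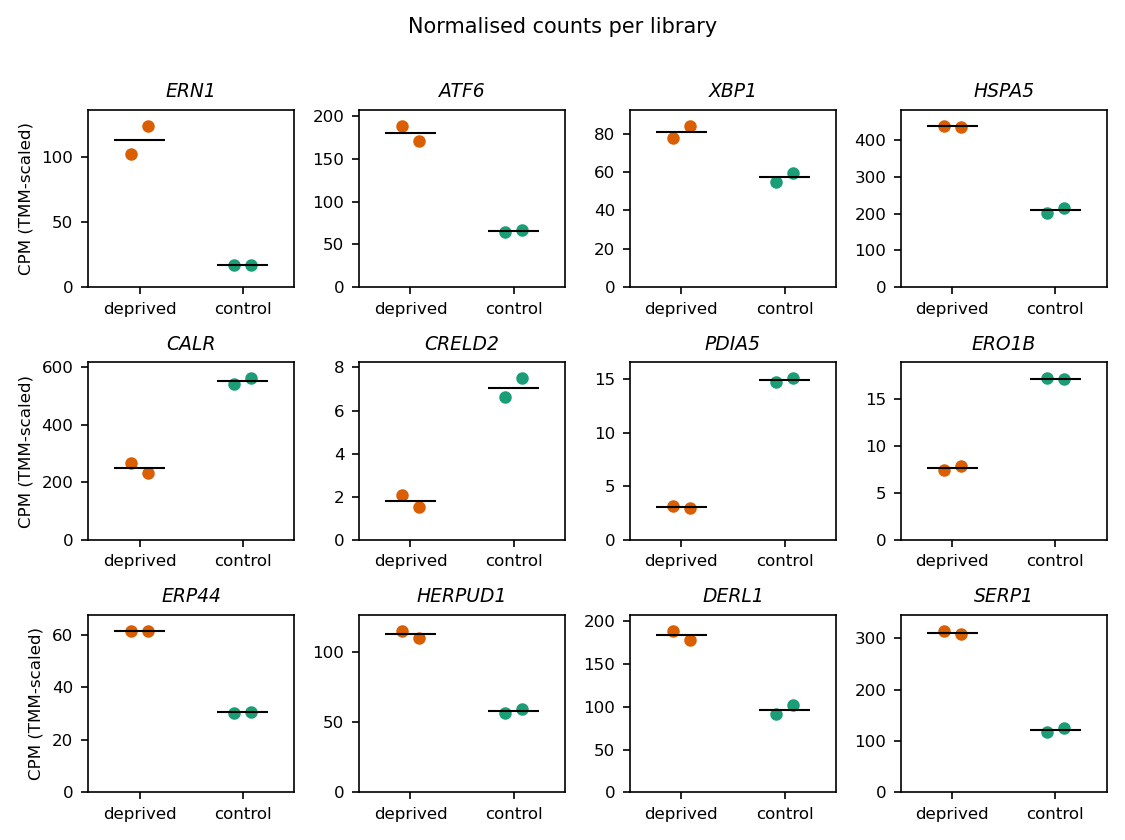
TMM-scaled CPM (y axis, from 0, own scale per gene) of 12 members, 1 point per library and a line at the group mean, deprived left of control. ERN1, ATF6, XBP1, HSPA5, ERP44, HERPUD1, DERL1 and SERP1 lie higher in deprived cells and CALR, CRELD2, PDIA5 and ERO1B lower, without overlap.

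Levels of different genes were compared per length, in TPM (counts over transcript length, scaled to a common total per library, without TMM). Differences between the groups in TPM therefore depend on the scaling, and on the lengths of the transcripts that held the counts. HSP90B1, for example, averaged 132 TPM in deprived and 182 TPM in control cells, but 224 and 231 CPM with TMM. All members together summed to 3083 and 3323 TPM in deprived libraries, against 4005 and 3675 TPM in control libraries. Disulfide genes summed to 815 and 863 TPM in deprived cells and 1353 and 1163 TPM in control cells, and chaperones to 1034 and 1100 TPM in deprived cells and 1533 and 1460 TPM in control cells. Both roles hold abundant mRNAs: on average CALR was at 212 TPM in deprived and 601 TPM in control cells, and P4HB at 372 TPM in deprived and 542 TPM in control cells. Degradation genes summed to 502 and 564 TPM in deprived cells, against 501 and 459 TPM in control cells. The translocon summed to 607 and 644 TPM in deprived and 528 and 505 TPM in control cells, and the sensors with XBP1 to 126 and 153 TPM in deprived and 89.9 and 88.3 TPM in control cells. ERN1, with the largest fold difference, remained a rare mRNA at 27.6 TPM in deprived cells and 8.42 TPM in control cells.

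ERSE or ERSE-II letters did not sort the members by direction. Of the 12 members with an element, 4 were higher, 5 lower and 3 not called, with a median log2 fold change of -0.11 and a range from -1.97 for CRELD2 to 1.35 for SERP1. Of the 22 members with a listed promoter and neither element, 10 were higher, 7 lower and 5 not called, with a median of 0.20. Elements stood in genes that rose (SERP1, HSPA5, XBP1 and HERPUD1) and in genes that fell (PDIA6, CALR, ERO1B, SDF2L1 and CRELD2). That the printed elements share their fixed letters follows from the search and says nothing about direction. A match is a description of letters and not a measured binding site, and copies with a mismatch were not searched. The letters of the XBP1 motif UPRE (TGACGTGG) stood in HYOU1, TXNDC11 and TXNDC5, against 0.927% of genes, and the UPRE in HYOU1 overlaps an ERSE-II. Amino acid response element letters (TGATGNAA) stood in HERPUD1 alone, against 4.46% of genes.

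**Figure D4:**
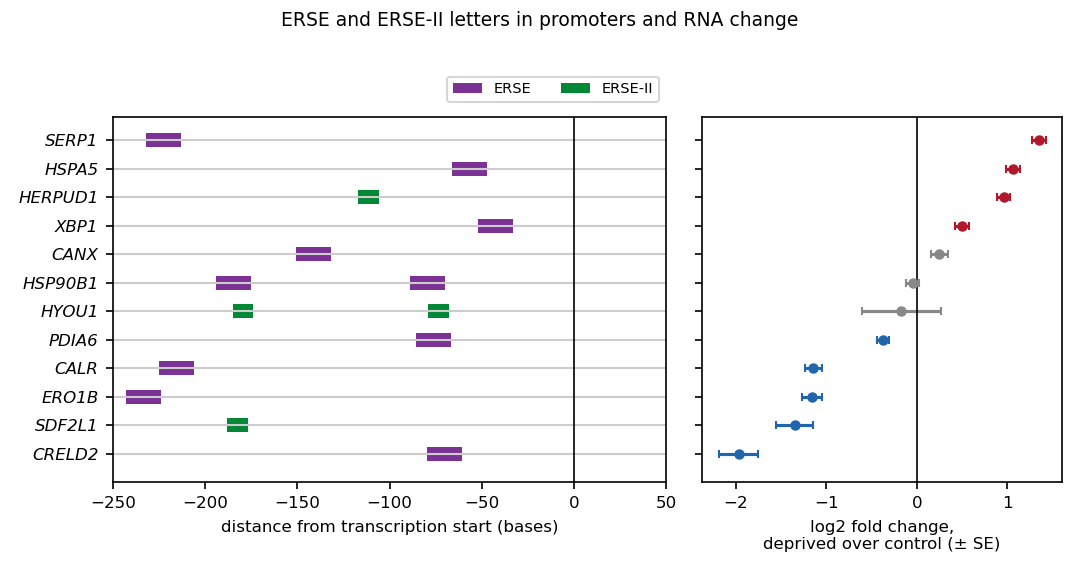
Left panel, position of ERSE (purple) and ERSE-II (green) letters in the promoters of 12 members (x axis, bases from the listed start; CANX is drawn from 1 of its listed starts). Right panel, log2 fold change (deprived over control) with SE of the same genes, red if called higher, blue if lower and grey if not called. SERP1 and ERO1B, with elements at similar positions, stand near opposite ends of the right panel.

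At the level of transcripts, 1.67% of 83759 transcripts tested were called, so the call rate is far below that of genes. Of 318 annotated transcripts of the members, 200 were tested. The transcripts ERN1-201, ATF6-201, HSPA5-201 and SERP1-201 were higher, and CALR-201 was lower. At an unadjusted p under 0.05 in edgeR, 28 of the 200 were higher (14% against 12.9% of all transcripts tested) and 24 lower (12% against 13%), shares near the background. None was called when any 1 library was left out. At an unadjusted p under 0.05, 7.80% to 11.7% of the members' transcripts (17 to 25) were then higher, against 8.65% to 9.31% of all transcripts, and 8.07% to 11.2% (18 to 24) lower, against 6.88% to 10.7%. In 18 members 1 transcript held over 90% of the gene's counts in every library. The leading transcript differed between groups in CRELD2, P4HB, DERL3 and HERPUD1. In HERPUD1 a coding transcript that led in neither group held 33.3% and 16.3% of counts in deprived libraries, against 3.29% and 4.81% in control libraries (log2 fold change 3.56 ± 0.55, edgeR adjusted p = 0.0716). The retained-intron transcript HERPUD1-209 held 20.4% and 22.8% in deprived and 37.5% and 32.3% in control libraries. Such shares are estimates, and they moved between replicates as well: P4HB-202 held 20.7% of P4HB counts in control replicate 1 and 0.807% in control replicate 2.

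Other genes of the same pathway, 145 genes in 12 roles, were set beside the members. Of 143 tested, 65 were higher, 31 lower and 47 not called, with a median log2 fold change of 0.20. The called share was 67.1%, against 49.6% of all genes and 66.0% of genes with at least 50 counts in 2 libraries, so it is near that of other well-counted genes. With library size alone 35 were higher and 59 lower, so their balance depends on the scaling. All 7 genes of the PERK arm were higher. ATF3, a transcription factor, had 168 and 148 CPM in deprived cells and 1.63 and 1.59 CPM in control cells (log2 fold change 6.62 ± 0.11). DDIT3 (CHOP) had 143 and 124 CPM in deprived cells and 3.26 and 3.29 CPM in control cells (5.35 ± 0.11), and PPP1R15A (GADD34), which brings a phosphatase to eIF2-alpha, had 566 and 471 CPM in deprived cells and 13.1 and 14.1 CPM in control cells (5.25 ± 0.13). Amino acid shortage is also known to raise these genes without PERK, and which kinase acted here was not tested. The kinase PERK itself, EIF2AK3, had 88.2 and 83.2 CPM in deprived cells and 53.1 and 51.7 CPM in control cells (log2 fold change 0.71 ± 0.07 (SE), edgeR adjusted p = 0.000391), so mRNAs of all 3 sensors were higher.

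Of 7 genes around ATF6 and its proteases, 4 were higher and 2 lower. CREBRF (1.22), CREB3 (1.32) and the site-2 protease gene MBTPS2 (0.78) were among the higher ones, as log2 fold changes. The 2 lower ones were MBTPS1 (-0.52) and ATF6B (-0.55). With library size alone 4 were higher and 3 lower. Of 8 J-domain and nucleotide exchange genes of BiP, 4 were higher and 0 lower, but 1 higher and 3 lower with library size alone. DNAJB9 (ERdj4) had 21.5 and 23.8 CPM in deprived cells and 10.8 and 11.5 CPM in control cells (log2 fold change 1.02 ± 0.11 (SE), edgeR adjusted p = 0.00047). DNAJC3 (0.53) and DNAJC25 (0.65) were higher too with TMM scaling.

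Other disulfide enzymes were mixed, with 3 higher, 6 lower and 5 not called of 14 tested (2 higher and 9 lower with library size alone). The oxidase QSOX1 had 167 and 155 CPM in deprived cells and 70.1 and 72.1 CPM in control cells (log2 fold change 1.18), and the membrane thioredoxin-like genes TMX2 and TMX4 were at 1.25 and -0.99. Of 7 ER prolyl isomerases, which turn proline bonds during folding, FKBP7 (-2.28) and FKBP11 (-0.52) were among 3 lower ones and FKBP14 (0.54) was higher. With library size alone 0 of these were higher and 5 lower, and FKBP14 was at 0.21 and not called (edgeR adjusted p = 0.223). For N-glycan transfer, 3 of 11 genes were higher, DAD1 (0.82), MAGT1 (0.39) and KRTCAP2 (0.35), and 8 were not called, against 1 higher and 5 lower with library size alone. In glycoprotein quality control 5 of 10 were higher, among them the cargo receptor subunit MCFD2 (1.22) and calmegin CLGN (1.19), and 2 lower, among them the mannosidase MAN1B1 (-0.54). With library size alone these counts turned to 2 higher and 5 lower.

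Translocation and signal cleavage genes, like the 4 translocon members, were mostly higher or not called: 12 of 21 were higher, 1 lower and 8 not called (7 higher and 4 lower with library size alone). TRAM1, which helps chains enter the channel, had 2046 and 2028 CPM in deprived cells and 459.9 and 558 CPM in control cells (log2 fold change 2.0 ± 0.12, edgeR adjusted p = 6.42e-05). TRAM2 (1.47) and the signal recognition particle gene SRP9 (1.16) were higher as well. Of 24 further degradation genes 11 were higher, 6 lower and 7 not called, turning to 5 higher and 11 lower with library size alone. FAF2, which links VCP to ER membranes, had 383 and 393 CPM in deprived cells and 108 and 104 CPM in control cells (log2 fold change 1.87 ± 0.07 (SE), edgeR adjusted p = 1.89e-05). The conjugating enzyme UBE2J2 (1.01) was higher, and the ligase TMEM129 (-0.998) was lower.

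**Figure D5:**
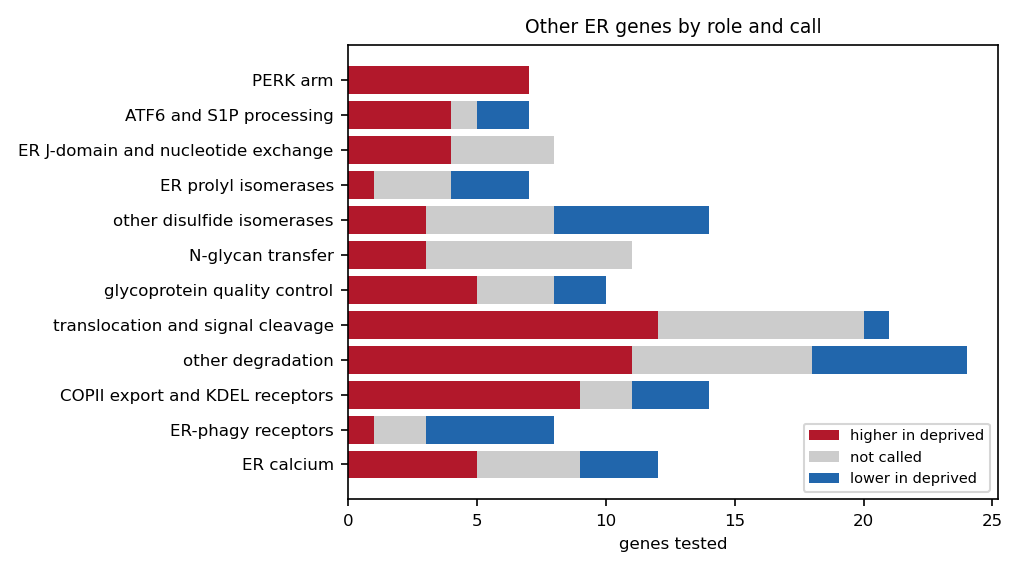
Number of genes tested (x axis) in each of 12 further ER roles, as stacked bars of those higher in deprived cells (red), not called (grey) and lower (blue). All 7 PERK arm genes were higher, and 5 of 8 ER-phagy receptors were lower.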

How the data were processed

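A549 RNA was sequenced after poly-T selection and random-hexamer priming, per the labels' protocols. The submitters' processing notes name HISAT2 2.0.5, featureCounts 1.5.0-p3, DESeq2 1.20.0 and hg38, with no roles. How reads were divided between transcripts, and with which annotation, is not given in the sources used here. Values were deposited by the authors as 1 whole number per transcript, named counts per the file headers, and were treated as estimated counts (expected counts), already whole. The design had assumed plain counts per gene.

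Values were summed to genes with GENCODE release 29 (GRCh38). It matched 205306 of 229420 transcripts, which held 98.0% to 98.2% of each library's counts, so gene sums may be partial where some of the 24114 unmatched transcripts belong to a gene. Genes were filtered with filterByExpr, scaled with TMM (0.862 and 0.919 for deprived, 1.15 and 1.10 for control libraries) and tested with edgeR 4.0.16 (quasi-likelihood, two-sided, Benjamini-Hochberg over all genes tested, adjusted p under 0.05) in R 4.3.3. SE is the absolute log2 fold change over the square root of F. The common biological coefficient of variation was 0.21. The test was checked on simulated data. TPM used annotated transcript lengths. Sequences come from GENCODE and RefSeq (GRCh38.p14).

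Replicates correlated at r = 0.979 (deprived) and 0.982 (control) over genes, and differed beyond sampling noise, with a chi-square per degree of freedom of 43.6 and 31.0. Alternatives were other scalings and filters, DESeq2 1.42.0, limma-voom (3.58.1), protein-coding transcripts only, a replicate block and leaving out each library. The members and lists were chosen with earlier results of these data known. Named genes are all members, and for each further role up to 3 called genes with the smallest p. EIF2AK3, ATF6B, MBTPS1, HBB, CD14, CD68, PTPRC, KRT7, KRT8, SFTPC, ABCA3 and LAMP3 were also named, chosen after their values were seen. A deposited table of long non-coding RNA transcripts holds no member and was not used here.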

Additional observations from a re-analysis of the deposited data

How the results depend on the processing

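Of the 28 called members, 20 kept their call and direction under all 13 alternatives. The exceptions were XBP1, P4HB, EDEM1, EDEM2, SEL1L, SELENOS, SEC61A1 and SEC61G. Of 479 values of single members under an alternative, 441 kept direction and side of the threshold, 13 lost a call, 11 gained one and 14 changed sign. Library size alone changed most: 9 members were higher, 35 of the other ER genes were higher and 59 lower, over all genes 4179 were higher and 8565 lower (32.8% of calls higher, against 50.8% with TMM), and CANX (-0.0867), ERP29 (-0.20), SEL1L (-0.00443) and SEC61B (-0.0747) changed sign. HYOU1 turned positive with limma-voom (0.00796), and OS9 with RLE factors and DESeq2 (0.019 each). Leaving out each library in turn gave values from -0.75 to 0.76 for HYOU1, from -0.0379 to 0.33 for ERP29, from -0.202 to 0.137 for SYVN1 and from -0.068 to 0.0392 for OS9. It gave 15 to 17 members higher and 12 to 13 lower, 53 to 66 other ER genes higher and 25 to 30 lower (an alternative added after seeing the data), and 0 to 0 member transcripts called in either direction. A lone library is then assumed to vary like the others. Over all genes tested, each fit with a library left out called a smaller share than the fit with every library. The cause of these changes was not tested.

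Same-numbered libraries did not deviate together (correlation -0.02), so no pairing by replicate number was detected. With 2 libraries per group, this cannot show that the samples were unpaired. With a replicate block 15 members were higher and 12 lower, EDEM2 lost its call (edgeR adjusted p = 0.0695), HYOU1 was at 0.00899, and over all genes 5529 were higher and 5079 lower. Depth was lowest for DERL3, with 6 to 23 counts.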

Other observations

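Genes that move proteins out of the ER, recycle the ER or handle its calcium were measured beside the folding genes. Of 14 COPII coat and KDEL receptor genes, 9 were higher in deprived cells, 3 lower and 2 not called (4 higher and 4 lower with library size alone). The COPII coat wraps vesicles that leave the ER. SEC23B had 214 and 216 CPM in deprived cells and 102 and 110.1 CPM in control cells (log2 fold change 1.02 ± 0.07 (SE), edgeR adjusted p = 0.000112), and SEC31A and SEC24A were at log2 fold changes of 0.98 and 0.95. KDEL receptors return escaped chaperones to the ER, and the family was split: KDELR2 had 509.9 and 489 CPM in deprived cells and 324 and 363 CPM in control cells (log2 fold change 0.54 ± 0.09 (SE), edgeR adjusted p = 0.00322), while KDELR1 (log2 fold change -0.42 ± 0.07 (SE), edgeR adjusted p = 0.00457) and KDELR3 (log2 fold change -1.36 ± 0.12 (SE), edgeR adjusted p = 0.000249) were lower. With library size alone the KDELR2 value was 0.21 (edgeR adjusted p = 0.0675).

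ER-phagy receptors tie pieces of ER to the autophagy machinery. Of 8 tested, 5 were lower, 1 higher and 2 not called. RETREG2 had 50.1 and 53.8 CPM in deprived cells and 113 and 99.5 CPM in control cells (log2 fold change -1.03 ± 0.09 (SE), edgeR adjusted p = 0.000233), CALCOCO1 had 12.7 and 11 CPM in deprived cells and 26.6 and 25.2 CPM in control cells (log2 fold change -1.13 ± 0.11 (SE), edgeR adjusted p = 0.000364), and CCPG1, the one that was higher, had 172 and 165 CPM in deprived cells and 87.9 and 93.8 CPM in control cells (log2 fold change 0.89 ± 0.07 (SE), edgeR adjusted p = 0.00018). Of 12 ER calcium genes 5 were higher, 3 lower and 4 not called, but 1 higher and 4 lower with library size alone. ITPR1, a calcium release channel, had 7.66 and 7.54 CPM in deprived cells and 25.4 and 22.3 CPM in control cells (log2 fold change -1.65 ± 0.11 (SE), edgeR adjusted p = 9.42e-05), whereas its paralogs ITPR2 and ITPR3 were higher, at 0.43 and 0.58 on the log2 scale, though not called with library size alone. NUCB2, a calcium-binding protein, was lower (-0.95) and RCN1, a calcium-binding protein of the ER lumen, was higher (0.72). VCP, the ATPase that pulls proteins out of the ER membrane, had 408 and 396 CPM in deprived cells and 724 and 691 CPM in control cells (log2 fold change -0.82 ± 0.08 (SE), edgeR adjusted p = 0.000345). Its membrane partners SELENOS and FAF2 were higher, SELENOS not called with library size alone. In the same role as VCP, UBXN8 was lower (-0.46), and UFD1 and NPLOC4 were not called. KDELR1, KDELR2, KDELR3, ITPR2, ITPR3, VCP, UBXN8, UFD1 and NPLOC4 were chosen after their values were seen.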
